A study of Ananas comosus with 48 samples.

Results

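The first sampling after ethephon treatment of field-grown pineapple was examined, by setting the 3 small RNA libraries of ethephon-treated apices labelled 6 hours against the 3 libraries of water-treated apices of the same sampling. These 6 libraries, chosen by treatment and sampling label, are part of 48 libraries in 16 groups. The miRs compared are the 57 of 190 listed mature sequences that had enough counts to be tested, and the other 133 are given by their counts. All plants were of cultivar 'MD1' (PRI 73-50), weighed 1.5 to 2 kg and stood in 3 field replications of both treatments, with about 50 plants in a block. In the ethephon group, 10 ml of water with 50 mg of ethephon, a compound that breaks down to ethylene, had been injected in the plant centre in the early morning. The water group, its control, had received 10 ml of water alone in the same way. Each library came from 3 pooled apices, and the tissue still held leaf primordia, so that it is not pure meristem. Plants of this sampling were cut later on the same morning, and 6 hours is when their processing was complete. The 7 later samplings, from day 1 to day 8, were cut in the morning and processed by noon, so that time after treatment and time of processing cannot be told apart between the first sampling and the others. Ethephon and water plants of the first sampling shared that schedule. No mature miR of the listed families is a sure marker of a single cell type, and the labelled tissue could not be checked in that way.

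Mature plant miRs are short RNAs cut from hairpin precursors and loaded into ARGONAUTE proteins, which they guide to messenger RNAs of nearly full complementarity. Each precursor gives a 5p and a 3p arm, of which usually one accumulates as the guide and the other as its less stable partner. In the shoot apex the conserved families act on transcription factors: miR156 and miR172 on SPL and AP2-like genes of age and flowering, miR160 on auxin response factors, miR164 on NAC genes that set organ boundaries, miR159 on GAMYB-like factors and miR166 on HD-ZIP III genes of leaf polarity. Others act outside development, such as miR827, known in Arabidopsis and rice for targets in phosphate transport, and miR168, which acts on ARGONAUTE itself. Pineapple is induced to flower by ethylene, and these roles are known mainly from other species.

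The sequences on which the results below turn are shown 5′ to 3′, as deposited, with the seed (bases 2 to 8) in capitals. The first 6 were called differentially expressed (DE), the others are arms, near-identical relatives or miRs next to the threshold.
miR827a-3p: uUAGAUGAccaucaacaaaca
miR164a-3p: cAUGUGCCcaucuucuccacc
miR164a-5p: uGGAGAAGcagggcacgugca
miR164b-5p: uGGAGAAGcagggcacgugug
miR160a-5p: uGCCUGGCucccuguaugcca
miR159j-3p: uUUGGAUUgaagggagcucug
miR827a-5p: uUUUGUUGauagucaucuaacc
miR160d-5p: uGCCUGGCucccugaaugcca
miR159c-3p: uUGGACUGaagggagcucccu
miR168a-5p: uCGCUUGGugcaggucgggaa
miR390a-5p: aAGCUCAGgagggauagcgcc
miR166c-3p: uUUCGGACcaggcuucauucc
miR164a-5p and miR164b-5p share a seed and differ only at C20U and A21G, and miR160a-5p and miR160d-5p share a seed and differ only at U15A (the first-named miR's base first, positions counted from 1 at the 5′ end). miR159c-3p and miR159j-3p bear the same family number but differ in their seeds. All 6 DE miRs are 21 bases long, as are 47 of the 57 tested. Several names can stand for 1 sequence: the miR160a-5p sequence is also listed as miR160b-5p and miR160c-5p, miR164a-5p as miR164c-5p and miR164e-5p, and miR159c-3p as miR319a-3p and miR319d-3p. Genome positions of the miR genes were not analysed here.

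Counts in listed miRs totalled 52035, 73286 and 67141 in the ethephon libraries, against 68561, 68282 and 86017 in the water libraries. As a share of all sequencing tags, listed miRs reached 0.403% ± 0.0275 in ethephon and 0.509% ± 0.0697 in water libraries (SD, n = 3 each), with no overlap and an exact two-sided permutation p of 0.1, the smallest that 3 against 3 allow. Totals, miRs detected, the share of miR159c-3p and that of the miR159 family gave p between 0.2 and 0.9 in the same exact test. Libraries of a group differed by more than sampling noise, so that none was counted as a repeat of another. Replicate 3 of ethephon and replicate 2 of water stood farthest from their group, by a median of 0.52 and 0.54 log2 units over the tested miRs, against 0.30 to 0.41 for the other 4. Water replicate 2 also had the lowest trimmed mean of M-values (TMM) scaling factor, 0.762 against 0.977 to 1.31 in the other 5, and the highest miR159 share, 76.0% against 63.2% to 72.1%. Levels below are CPM, counts brought to a common library total with the TMM factors, and a count of 3 corresponds to 34.9 to 57.7 CPM before those factors. Such limits hold for counting error alone, because amplified reads that carry no molecular identifier do not each stand for a molecule. In these bulk samples fewer cells of a type and less RNA per cell cannot be told apart.

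The composition of the apex was led by a few miRs in both groups. miR159c-3p made up 34.7% ± 5.41 of the counts in ethephon and 31.6% ± 3.75 in water libraries, and miR159j-3p 25.4% ± 3.19 and 35.5% ± 1.09 (SD, n = 3 each). miR159c-3p was thus the most abundant miR in each ethephon library, and miR159j-3p in each water library. miR166b-3p, which acts on HD-ZIP III genes, followed with 12.8% in ethephon and 10.4% in water, and miR162a-3p, which acts on the dicer that makes miRs, with 8.64% and 7.39%. miR159a-3p, miR166a-3p, miR166d-5p, miR159b-3p, miR168a-5p and miR827a-3p completed the 10 most abundant of these 6 libraries, which together held 94.4% of the counts. miR827a-3p stood at 1.02% ± 0.0327 in ethephon and 0.296% ± 0.0863 in water.

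**Figure D1:**
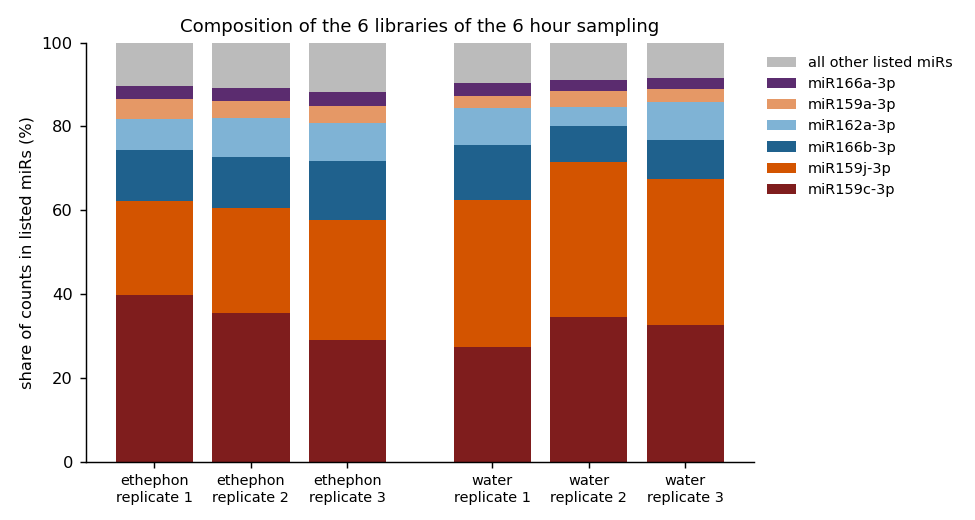
Share of counts in listed miRs (vertical axis, percent) taken by the 6 most abundant miRs and by all others together in each of the 6 libraries (bars), ethephon on the left and water on the right. The miR159j-3p segment averages 25.4% in ethephon and 35.5% in water libraries, while the miR166b-3p segment averages 12.8% and 10.4%.

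Of the 57 tested miRs, 6 were DE in the edgeR fit, at a p under 0.05 after Benjamini-Hochberg adjustment, 10.5% of those tested: 4 up-regulated (7.02%) and 2 down-regulated (3.51%) by ethephon. All 4 that rose belong to miR827 or miR164, and the 2 that fell were miR160a-5p and miR159j-3p. At an unadjusted p under 0.05 there were 10, or 17.5%. The groups did not overlap for 13 miRs (22.8%), with all 3 ethephon libraries above the water libraries for 7 (12.3%) and below for 6 (10.5%). Differences ran from -1.16 to 1.73 log2 units with a median of -0.15, 24 above 0 and 33 below, and 37 of the 57 lay within 0.5 of 0. The scale matters here: without the TMM composition factors the values shifted upward, by 0.37 at the median of all miRs, and by 0.22 when miR159c-3p was left out of the factors. No DE miR changed direction under either, but 14 and 10 of the others did.

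**Figure D2:**
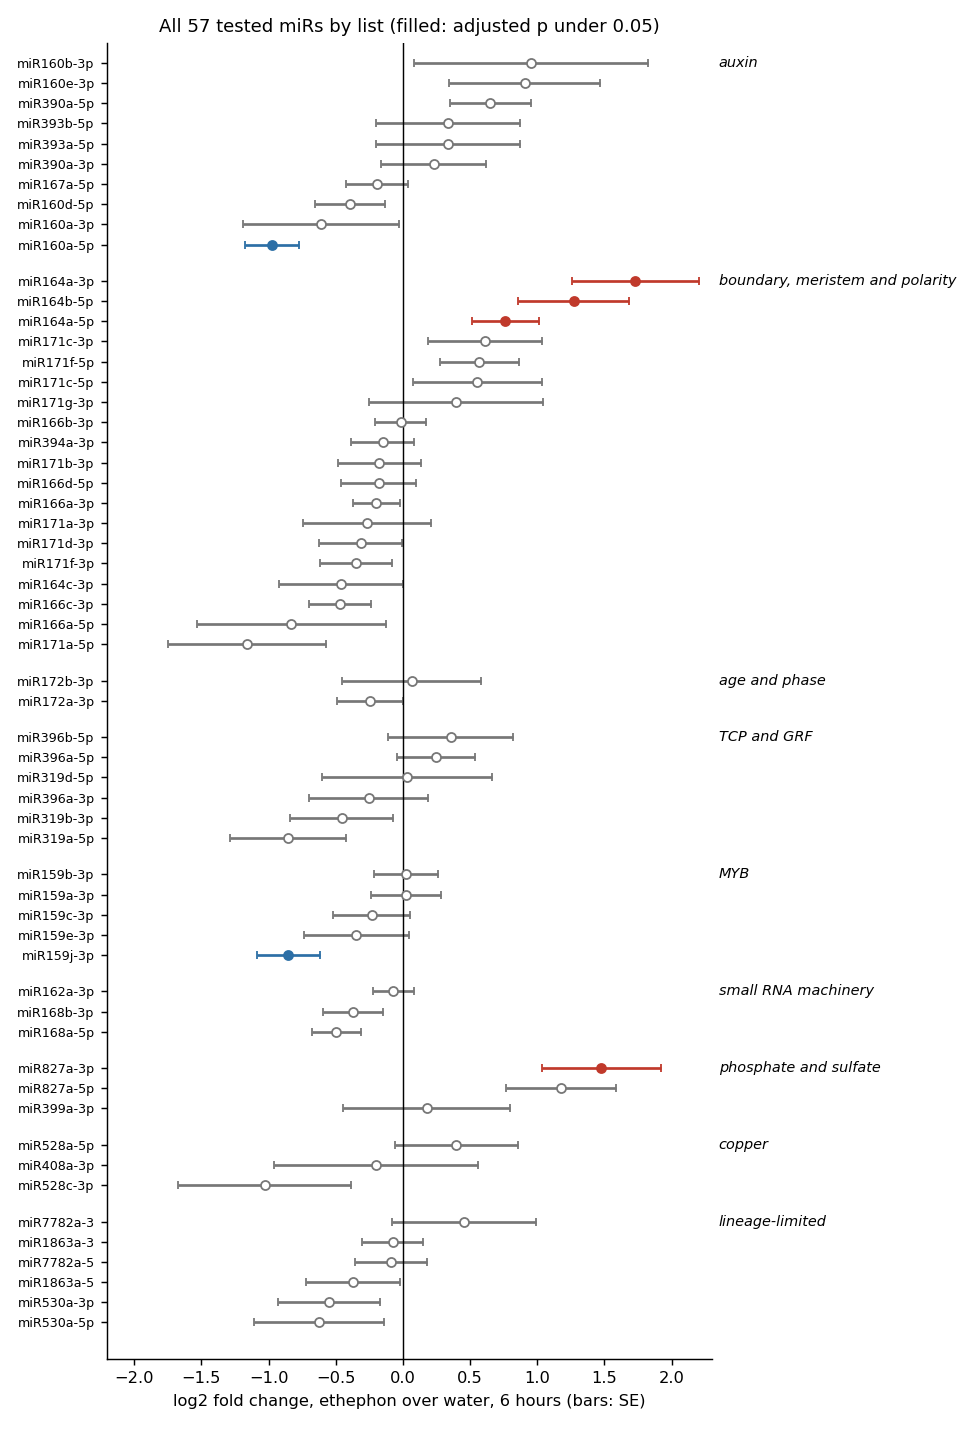
Log2 fold change of ethephon over water at 6 hours (horizontal axis, bars are SE) for the 57 tested miRs, grouped by the role of their family (a miR in more than 1 list is drawn once). Filled points are the 6 DE miRs. Of the 4 that rose, 3 stand in the boundary, meristem and polarity list, which holds 19 of the 57 tested miRs. All 3 are miR164 sequences.

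The nutrient miR827 had the second largest rise. miR827a-3p, the arm known to guide cleavage of phosphate transport genes, had 9634, 7688 and 8023 CPM in ethephon apices, against 3367, 3153 and 2582 CPM in water apices. All 3 ethephon libraries lay far above all 3 water libraries, and the spread within each group was small beside the gap. Its log2 fold change was 1.48 (SE 0.44, 2.78-fold, adjusted p = 0.0244 in edgeR). The other arm, miR827a-5p, had 1268, 792 and 787 CPM in ethephon apices, against 472, 346 and 416 CPM in water apices. Again all ethephon libraries lay above all water libraries, and the difference of 1.18 (SE 0.41) missed the threshold with an adjusted p of 0.0523. This arm lay next to the threshold: it was called in 11 of 20 alternatives, 3 of the 4 other scalings and the 6 libraries alone (adjusted p = 0.0361) among them, and in none of the 6 fits that left out 1 library, with adjusted p from 0.0032 to 0.287 over the 20. The log2 ratio of the 3p to the 5p arm was 3.18 ± 0.23 in ethephon and 2.86 ± 0.27 in water libraries (SD, n = 3 each), and the ratios of the groups overlapped.

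Summed over both arms and fitted as a family, miR827 was up-regulated by 1.36 (SE 0.44, adjusted p = 0.0216), 1 of 4 families DE of 23 tested (17.4%, with 2 up, 8.7%, and 2 down, 8.7%). Before adjustment 6 families (26.1%) were under 0.05, and the groups did not overlap for 4 (17.4%), 2 on each side (8.7%). By arm, 3p rose by 1.55 (SE 0.46, adjusted p = 0.0263) and 5p by 1.25 (SE 0.41, adjusted p = 0.0374), 2 of the 4 DE of 36 family arms (11.1%, with 3 up, 8.33%, and 1 down, 2.78%). Among the arms 7 were at an unadjusted p under 0.05 (19.4%) and 8 did not overlap (22.2%), 5 with ethephon above (13.9%) and 3 with ethephon below (8.33%). The call of miR827a-3p was lost when any library but ethephon replicate 2 was left out, with adjusted p values of 0.0637 (without ethephon replicate 1), 0.0581 (ethephon replicate 3), 0.0597 (water replicate 1), 0.121 (water replicate 2) and 0.0915 (water replicate 3), although its fold change stayed between 1.37 and 1.56. The family call was lost without ethephon replicate 1 (adjusted p = 0.0733) or water replicate 2 (0.126) or 3 (0.104). The 3p arm lost it without ethephon replicate 1 (0.101) or 3 (0.0587) or water replicate 1 (0.07) or 2 (0.0783), and the 5p arm without these (0.176, 0.0587, 0.07 and 0.126) or water replicate 3 (0.0667). The spread of miR827a-3p was drawn from all 16 groups. In the 6 libraries alone its adjusted p was 0.00015, and over all alternatives it ran from 1.1e-08 to 0.217.

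The rise of miR827 differed from its course at the later samplings. The 6 hour ethephon group had the highest mean of all 16 groups for both arms, 8448 ± 1041 CPM for 3p and 949 ± 277 CPM for 5p (SD, n = 3), while the water group of the same hour ranked 9th and 5th. Later ethephon groups averaged 1555 to 4417 CPM for the 3p arm and later water groups 2051 to 5830 CPM. The ethephon minus water difference of miR827a-3p was 1.48 at 6 hours, 0.74 at day 1, -0.20 at day 2, -0.92 at day 3, -1.02 at day 4, -0.65 at day 5, -0.75 at day 6 and -0.41 at day 8. For miR827a-5p the same differences were 1.18, 0.76, -0.97, -1.79, -1.50, -1.43, -0.84 and -1.91. Thus both arms were by sign above water at the first 2 samplings and below it at the next 6. The later differences were not tested one by one. Those of miR827a-3p at day 2 (SE 0.44) and day 8 (SE 0.46) were smaller than their SE. Set against the mean of the other 7 differences, the 6 hour value was higher by 1.94 (SE 0.48, adjusted p = 0.0054) for the 3p arm and by 2.27 (SE 0.46, adjusted p = 0.00061) for the 5p arm. These were the only 2 of 57 miRs called in that contrast (3.51%; 10, or 17.5%, at an unadjusted p under 0.05), and both were called in all 17 alternatives run, with 1.83 to 2.15 and 2.02 to 2.48. In the list of phosphate and sulfate families 3 miRs were tested, 2 of them the arms of miR827. The median of the 3 was 1.18, the value of miR827a-5p, against -0.15 for all 57. Of these miRs miR827a-3p alone was DE at 6 hours, 1 of 3 against 6 of all 57 (10.5%). miR399a-3p, from a family that acts on a regulator of phosphate uptake, differed by 0.18 (SE 0.62), and the miR395 sequences, of sulfate assimilation, had at most 4 counts in a library.

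**Figure D3:**
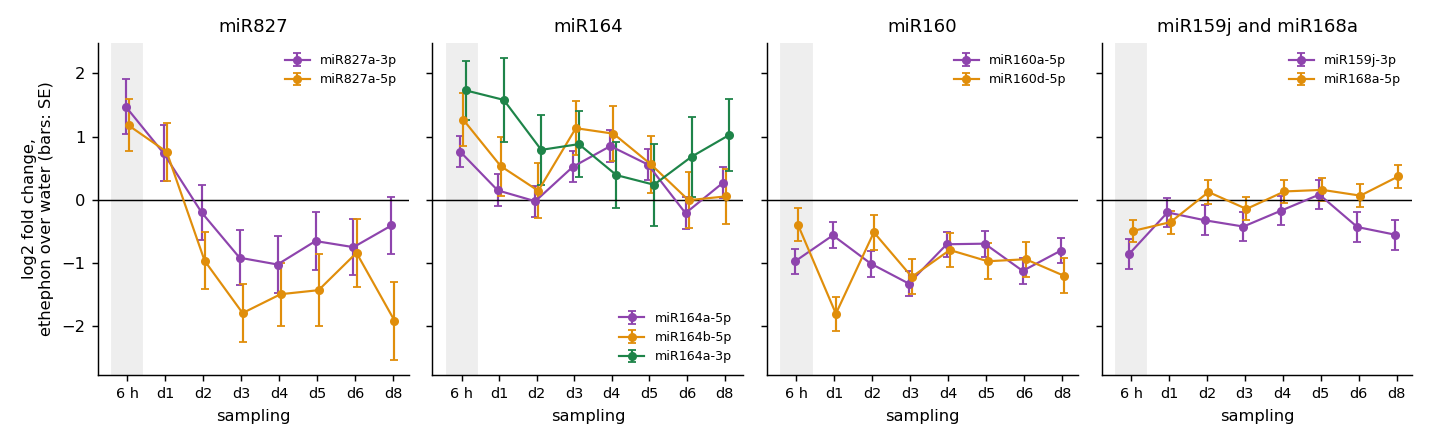
Ethephon minus water difference (vertical axis, log2 fold change with SE bars) at each sampling from 6 hours to day 8 (horizontal axis) for arms of miR827, miR164, miR160, and for miR159j-3p with miR168a-5p; the 6 hour sampling is shaded. Both miR827 arms start above 0 and lie below it from day 2 on, whereas miR160a-5p lies below 0 at each sampling.

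Members of miR164, which restrain the NAC genes of organ boundaries, were 3 of the 4 up-regulated miRs. The guide arm miR164a-5p had 3857, 3281 and 6377 CPM in ethephon apices, against 2236, 2634 and 3093 CPM in water apices. Its near-identical relative miR164b-5p had 405, 635 and 787 CPM in ethephon apices, against 224, 192 and 333 CPM in water apices. In both, the lowest ethephon library lay above the highest water library, by a narrow margin, and ethephon replicate 3 was the highest of the 6. The log2 fold change was 0.76 (SE 0.25, 1.70-fold) for miR164a-5p and 1.27 (SE 0.41, 2.41-fold) for miR164b-5p, each with an adjusted p of 0.0345 in edgeR. Whether reads with mismatches could be placed on either 5p sequence is not stated. The split between them is therefore uncertain, and their calls may not be independent. The partner arm miR164a-3p had 387, 438 and 1125 CPM in ethephon apices, against 236, 77 and 250 CPM in water apices, which rested on 22, 42 and 93 counts against 19, 4 and 21. This was the largest difference among the tested miRs, 1.73 (SE 0.47, 3.32-fold, adjusted p = 0.0158), with ethephon replicate 3 the highest and water replicate 2 the lowest library. miR164c-3p, another partner arm, overlapped between the groups (-0.46, SE 0.46, adjusted p = 0.599).

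All 3 miR164 calls were lost when either ethephon replicate 3 or water replicate 2 was left out, and some were lost in other fits as well. Without ethephon replicate 3 the differences were 1.07 for miR164a-3p, 0.42 for miR164a-5p and 1.05 for miR164b-5p, with adjusted p values of 0.244, 0.497 and 0.181, and without water replicate 2 they were 1.42, 0.76 and 1.14, with 0.121, 0.121 and 0.145. Calls of miR164a-5p (adjusted p = 0.141) and miR164b-5p (adjusted p = 0.125) were also lost without water replicate 1, and those of miR164b-5p without ethephon replicate 2 (adjusted p = 0.069) and of miR164a-5p in the 6 libraries alone (adjusted p = 0.0591) and with no filter (0.0554). With all sequencing tags as library size all 3 were lost, at an adjusted p of 0.0652 for miR164a-3p and 0.193 for each 5p sequence. Over all alternatives the adjusted p ran from 0.0038 to 0.612 for miR164a-5p and miR164a-3p and from 0.007 to 0.508 for miR164b-5p, and all 3 stayed above 0. As a family miR164 rose by 0.71 (SE 0.22, adjusted p = 0.0216) and its 5p arm by 0.87 (SE 0.23, adjusted p = 0.0145), the smallest p among the family arms. The family call was lost without water replicate 1 (adjusted p = 0.0935) or 2 (0.0783), and the 5p call without these (0.07 and 0.0783) or ethephon replicate 3 (0.134). At later samplings the miR164a-3p difference was above 0 at 7 of 7 (0.24 to 1.58), that of miR164b-5p at 6 and that of miR164a-5p at 5. The 6 hour values exceeded the mean of the others by 0.93, 0.78 and 0.46 for miR164a-3p, miR164b-5p and miR164a-5p, none of them called (adjusted p = 0.298 each).

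Auxin-related miRs were led by a decrease of miR160a-5p, which acts on repressing auxin response factors. It had 2114, 2542 and 1658 CPM in ethephon apices, against 4249, 4596 and 3605 CPM in water apices. The groups were far apart, the highest ethephon library lying well below the lowest water library. The log2 fold change was -0.98 (SE 0.20), a level 1.97-fold lower in ethephon, with the smallest adjusted p of the sampling (0.0010, edgeR). This call held when each library was left out in turn, with a highest adjusted p of 0.0364, and in 18 of 20 alternatives. The exceptions were the scale with no composition factor (-0.64, adjusted p = 0.139), where the median of all miRs was shifted by 0.37, and the fit without both ethephon replicate 3 and water replicate 2 (-0.75, adjusted p = 0.191). The 6 hour ethephon mean of 2104 ± 442 CPM was the lowest of the 16 groups. At the later samplings the difference was below 0 at 7 of 7, from -0.56 to -1.33, and the 6 hour value lay 0.09 below their mean, which was not called (SE 0.22, adjusted p = 0.878).

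**Figure D4:**
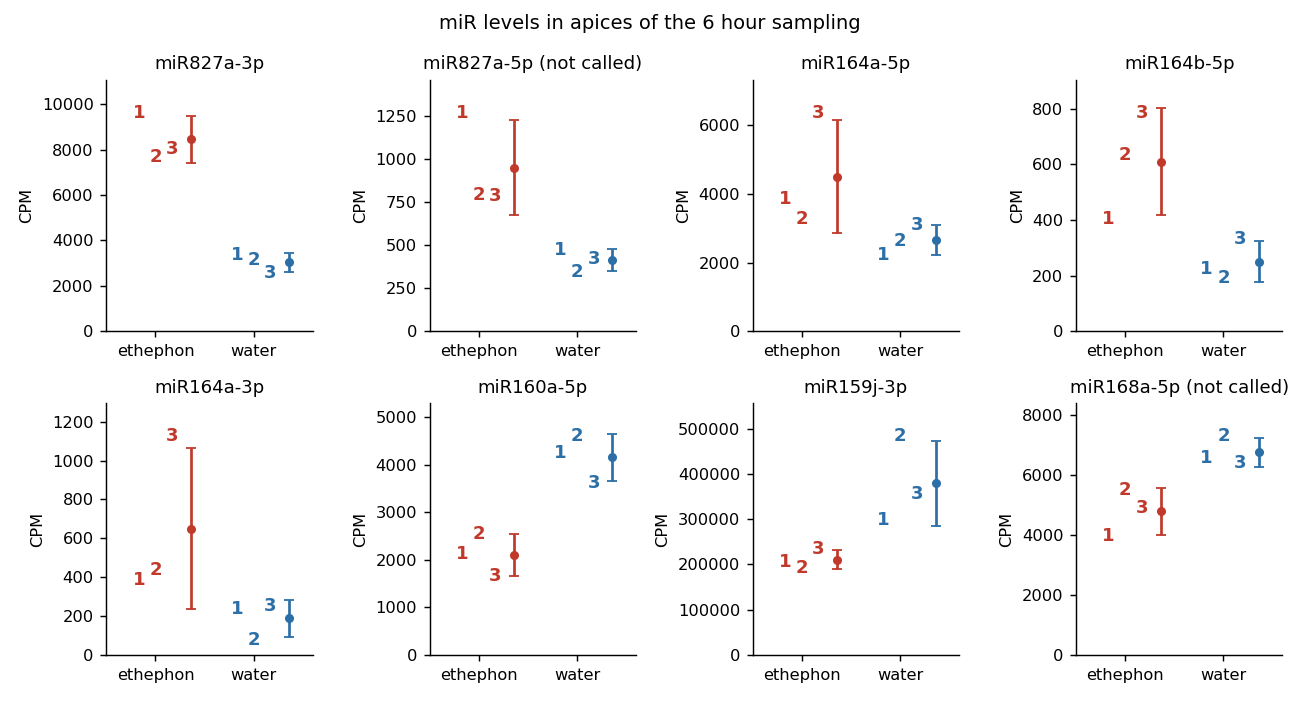
CPM on the TMM scale (vertical axes, from 0) of 8 miRs in ethephon (red, left) and water apices (blue, right) of the 6 hour sampling; digits are the replicate numbers, points with bars the mean ± SD (n = 3). In each panel the groups do not overlap, and ethephon replicate 3 is the highest library for the 3 miR164 sequences.

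The relative miR160d-5p, 1 base apart, had 1550, 1521 and 1948 CPM in ethephon apices, against 2323, 2884 and 1428 CPM in water apices. Here the groups overlapped, since water replicate 3 was the lowest of all, and the difference was -0.39 (SE 0.26, adjusted p = 0.443). Whether reads with a mismatch could be placed on either sequence is not stated, so the split between the 2 is uncertain. Their sum, the miR160 5p arm, fell by 0.67 (SE 0.20, adjusted p = 0.0263), and the whole family by 0.76 (SE 0.18, adjusted p = 0.00298). The 5p call was lost without ethephon replicate 1 (adjusted p = 0.117) or 3 (0.134) or water replicate 1 (0.07) or 2 (0.0923), and the family call without ethephon replicate 3 (-0.41, adjusted p = 0.467) or water replicate 2 (-0.50, adjusted p = 0.201). The family was called in 10 of 20 alternatives and under 1 of 4 other scalings, and its value moved to -0.33 with no composition factor (adjusted p = 0.545), -0.25 with a mean of 10 counts in either group (adjusted p = 0.490) and -0.43 in the 6 libraries alone (adjusted p = 0.477). The 5p arm was called in 9 of 20, and differed by -0.41 with no composition factor (adjusted p = 0.445) and -0.62 in the 6 libraries alone (adjusted p = 0.102). The partner arms went both ways with few counts: miR160a-3p -0.61 (SE 0.58), miR160e-3p 0.91 (SE 0.56) and miR160b-3p 0.95 (SE 0.87), none of them DE, and miR160d-3p had 4, 6 and 10 counts in ethephon against 4, 3 and 4 in water libraries.

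Of the other auxin families, miR390a-5p, which triggers the small RNAs that silence further auxin response factors, had 722, 635 and 1246 CPM in ethephon apices, against 584, 538 and 535 CPM in water apices. All ethephon libraries were higher, with replicate 3 the highest, but the difference of 0.65 (SE 0.30) passed 0.05 only before adjustment (adjusted p = 0.236, edgeR). miR167a-5p, which acts on activating auxin response factors, differed by -0.19 (SE 0.23), and the nearly identical miR393a-5p and miR393b-5p, which act on auxin receptors and had equal counts in the 6 libraries, by 0.34 (SE 0.54). In all, 1 of the 10 tested auxin miRs was DE, against 6 of all 57 (10.5%), which is no more than the background, and their median was 0.28 against -0.15 for all 57.

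The second decrease was in miR159j-3p. It had 205085, 191655 and 233506 CPM in ethephon apices, against 298760, 483096 and 355909 CPM in water apices. The ethephon libraries lay close together and below all water libraries, of which replicate 2 was the highest. The log2 fold change was -0.85 (SE 0.24), 1.81-fold lower, with an adjusted p of 0.0158 in edgeR. The call was lost with no composition factor (-0.48, adjusted p = 0.0628), with all sequencing tags as library size (-0.81, 0.207), with factors computed without miR159c-3p (-0.62, 0.0777), and without ethephon replicate 2 (0.0539) or water replicate 2 (0.145). Over its alternatives the adjusted p ran from 0.0055 to 0.283. A ratio inside a library needs no such scale. miR159c-3p to miR159j-3p stood at 1.78, 1.41 and 1.01 in ethephon, against 0.781, 0.941 and 0.939 in water libraries, again with no overlap, a pair chosen after the values were seen.

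The MYB list follows the family number of the first name. In it, miR159a-3p and miR159b-3p matched miR319b-3p without a mismatch over 19 and 18 bases, and the miR159c-3p sequence is also listed under miR319. The place of these sequences in the list therefore rests on the name alone. miR159a-3p and miR159b-3p, which differ only in a last base, each differed by 0.02, and miR159c-3p by -0.23 (SE 0.29). miR159e-3p, which shares the seed of miR159j-3p, differed by -0.35 (SE 0.39). So 1 of 5 in this list was DE, against 6 of all 57 (10.5%) in either direction and 2 (3.51%) down, with a median of -0.23 against -0.15. Summed by family number, with miR159c-3p included, miR159 differed by -0.59 (SE 0.25). The groups overlapped, with 1 ethephon library above 1 water library, and the adjusted p was 0.105 in edgeR. At later samplings miR159j-3p was below water at 6 of 7 (-0.55 to 0.08).

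miR168a-5p, which acts on ARGONAUTE and so on the pathway that all miRs share, had 3963, 5500 and 4913 CPM in ethephon apices, against 6584, 7307 and 6413 CPM in water apices. The groups did not overlap, and the water mean was the highest of the 16 groups. The difference of -0.50 (SE 0.18) had an adjusted p of 0.0634. The other arm, miR168b-3p, had 3998, 3136 and 3558 CPM in ethephon apices, against 4522, 4403 and 4902 CPM in water apices, also without overlap (-0.37, SE 0.22, adjusted p = 0.403). Together they made miR168 the remaining DE family, down-regulated by 0.54 (SE 0.17, adjusted p = 0.0216), while miR162a-3p differed by -0.07 (SE 0.15). None of the 3 single miRs of this list was DE (median -0.37). The miR168 family call held in 5 of 20 alternatives and was lost without ethephon replicate 1 (adjusted p = 0.0733), 2 (0.0572) or 3 (0.674), or water replicate 2 (0.201) or 3 (0.318). Its value was -0.12 without composition factors, where the median of all families was 0.25 in place of -0.17.

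Outside miR164, the boundary, meristem and polarity list gave no call, so that 3 of its 19 tested miRs were DE, against 6 of all 57 (10.5%), with a median of -0.18 against -0.15. miR166c-3p, a minor HD-ZIP III regulator, had 3346, 2646 and 4272 CPM in ethephon apices, against 4472, 5269 and 4462 CPM in water apices. Every ethephon library was lower, 1 of them narrowly (-0.47, SE 0.23, unadjusted p = 0.0499, adjusted p = 0.256). The abundant miR166b-3p and miR166a-3p, which overlap it in sequence, differed by -0.02 (SE 0.19) and -0.20 (SE 0.17), and miR166d-5p by -0.18, with 31323 CPM in water replicate 2 against 11731 to 18925 CPM in the other 5 libraries. The miR171 family, which acts on GRAS genes of the meristem, went both ways: miR171c-3p 0.61 (SE 0.42), miR171c-5p 0.55 (SE 0.48), miR171f-5p 0.57 (SE 0.29) and miR171a-5p -1.16 (SE 0.59), the last on 3 to 13 counts a library. None of its 9 tested sequences was DE. miR394a-3p, whose F-box target acts in meristem upkeep, differed by -0.15 (SE 0.23).

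Within miR171f the balance of the arms differed. The log2 ratio of miR171f-3p to miR171f-5p counts was 0.17, 0.22 and 0.45 in ethephon, against 1.63, 1.06 and 1.01 in water libraries. The 3p arm thus exceeded the 5p arm by little in each ethephon library and by 1 log2 unit or more in each water library, without overlap. It is a description of 1 of 12 arm pairs, chosen after the ratios were seen, and neither arm was DE.

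Regulators of TCP and growth-regulating factors were not DE in any of 6 sequences (median -0.11). miR319a-5p had 335, 271 and 194 CPM in ethephon apices, against 311, 519 and 607 CPM in water apices, with 1 library of overlap (-0.86, SE 0.43, adjusted p = 0.256), and the miR319 family sum differed by -0.67 (SE 0.31, adjusted p = 0.145). miR319b-3p differed by -0.46 (SE 0.38). The 3p sequence of miR319a is that of miR159c-3p, whose counts cannot be divided between the families. That sequence was counted under miR159 alone, so the TCP and GRF list and the miR319 sum leave it out. It was not DE itself (-0.23, SE 0.29). miR396a-5p, which acts on growth-regulating factors, differed by 0.25 (SE 0.29) at 6 hours, while its later differences were all below 0, from -0.12 to -1.50. The contrast with those was 0.96 (SE 0.31, adjusted p = 0.0569), short of the threshold. Its other arm miR396a-3p differed by -0.25, miR396b-5p by 0.35, and both arms of miR396c had 0 counts.

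The age and phase families, of most interest for flowering, gave no call. miR172a-3p, the guide of the AP2-like repressors, had 1409, 1344 and 1416 CPM in ethephon apices, against 1739, 1308 and 1880 CPM in water apices. Water replicate 2 lay below the ethephon libraries and the other water libraries above them, so that the groups overlapped (-0.25, SE 0.25, adjusted p = 0.599). miR172b-3p, which is shifted in its start and much rarer, differed by 0.06 (SE 0.52). The miR172 5p sequences were under the count filter, with 2, 6 and 8 counts of miR172a-5p in ethephon against 2, 2 and 6 in water libraries, 1, 8 and 3 of miR172c-5p against 0, 0 and 2, 1 count of miR172d-5p in ethephon against 0, and 0 of miR172b-5p. Their sum was tested as a family arm and differed by 1.18 (SE 0.65, adjusted p = 0.341).

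miR156 could not be tested at this depth. miR156a-5p had 4, 0 and 0 counts in ethephon against 1, 0 and 3 in water libraries, miR156c-5p 1, 0 and 4 against 4, 1 and 0, miR156a-3p 0, 0 and 5 against 0, 2 and 2, miR156b-3p 1 count against 2 in all, and miR156b-5p 0 against 2. The other listed miR156 sequences were at 0 in the 6 libraries, which allows up to 34.9 to 57.7 CPM a library. Of the families related to miR156 by their SPL targets, miR535a-5p had 3, 5 and 10 counts in ethephon against 7, 9 and 5 in water libraries, miR535a-3p 5 in all against 7, miR529a-5p 1 against 0 and miR529a-3p 1 against 2. The groups overlapped for every one of these.

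None of the 3 tested copper miRs (median -0.20) or of the 8 lineage-limited miRs (median -0.23) passed the test in either direction. miR528a-5p, a monocot miR of copper proteins, differed by 0.40 (SE 0.46), and its rare partner miR528c-3p had 53, 115 and 48 CPM in ethephon apices, against 149, 212 and 119 CPM in water apices, below in every library but on few counts (-1.03, SE 0.64, adjusted p = 0.414). miR408a-3p differed by -0.20 (SE 0.76). miR530a-5p differed by -0.63 (SE 0.48) and miR530a-3p by -0.55 (SE 0.38), and the miR1863 and miR7782 arms by -0.37 to 0.45. miR1432a-3 had 2 counts in ethephon against 5 in water, all in 1 library each, and miR1432a-5 none. The phosphate and copper lists also stand for miRs known from vascular and leaf tissue. Apart from miR827 none of their members was DE, and the part of tissue makeup in the miR827 difference was not tested.

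Among the 133 sequences under the filter, 46 had a count in these libraries and none had more than 10 in any. They held 186 counts in ethephon and 164 in water. A treatment-only signal was not seen at this depth: 7 were counted only in ethephon and 4 only in water, with at most 2 counts in a group. Families that came next after those named were miR530 (-0.73, SE 0.44, adjusted p = 0.338), miR390 (0.41), miR167 (-0.28) and miR1863 (-0.22), and next family arms were miR168 5p (-0.41, adjusted p = 0.095), miR164 3p (0.87, 0.117), miR390 5p (0.71, 0.117), miR171 5p (0.50) and miR159 3p (-0.41).

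By arm, the 34 tested 3p sequences had a median of -0.19 and the 23 of the 5p arm 0.03, each with 3 calls, and no DE miR came from the 10 sequences of another length than 21 bases.

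Ratios within a library, which do not depend on scaling, set the opposite changes side by side. The ratio of miR827a-3p to miR160a-5p counts was 4.56, 3.02 and 4.84 in ethephon, against 0.792, 0.686 and 0.716 in water libraries. miR827a-3p thus exceeded miR160a-5p by 3-fold or more in each ethephon library and was the rarer of the 2 in each water library. For miR164a-5p the ratio to miR160a-5p was 1.82, 1.29 and 3.85 in ethephon, against 0.526, 0.573 and 0.858 in water libraries, again on either side of 1. The pairs were chosen after the values were seen, so the ratios carry no test.

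**Figure D5:**
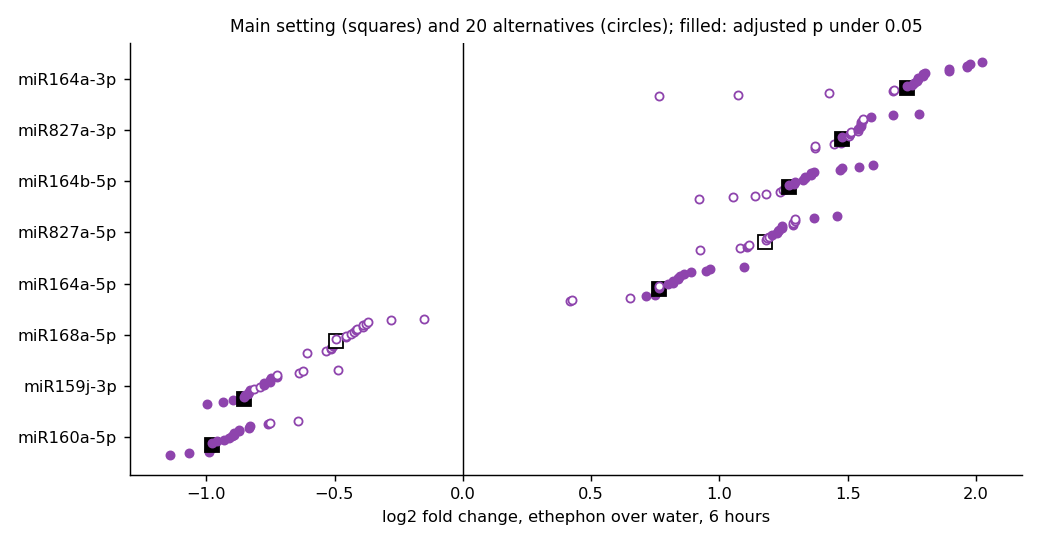
Log2 fold change of ethephon over water at 6 hours (horizontal axis) of 8 miRs under the reported setting (squares) and 20 alternatives (circles), filled where the adjusted p was under 0.05. No point crosses 0, and miR160a-5p is filled in 18 of its 20 alternatives, against 13 for miR827a-3p and miR164a-5p.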

How the data were processed

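Per the labels and the study's methods, the authors trimmed adapters, collapsed identical reads and matched them to mature pineapple miRs of miRBase. The deposited table gives raw counts of 190 mature sequences in 48 libraries and a score, in which the authors had scaled each count by the library's sequencing tags and rounded it. The scores served only to recover the tags of each library. An other deposited file pairs names with sequences and holds no measurement. The sources used here do not name the aligner or how many mismatches it allowed.

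A sequence with several names goes by the first name listed, and the family is the number in it. The count analysis used edgeR 4.0.16 in R 4.3.3. filterByExpr (minimum count 10, minimum total 15, 16 groups) kept 57 of 127 sequences with a count. With TMM factors, all 48 libraries entered 1 quasi-likelihood fit with 16 group means, and ethephon minus water at 6 hours was tested, with Benjamini-Hochberg adjustment over the 57 (common biological coefficient of variation 0.246). A second contrast set the 6 hour difference against the mean of the other 7. Counts summed by family (23) and by family and arm (36) were fitted likewise with their own factors, so their values differ a little from those of single miRs. SE is the absolute log2 fold change over the square root of F and is unreliable for very small changes. Labels call the libraries biological replicates of 3 apices, and 3 plants of a treatment were taken from each of the 3 field replications at a sampling. Whether a library's number marks its field replication is not stated.

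Named miRs are those DE or at an unadjusted p under 0.05, those DE in the second contrast, the 10 most abundant, both arms of DE miRs, all miR156, miR157, miR172, miR529 and miR535 sequences listed, both arms of miR160a, miR160d, miR164a, miR171c, miR319a, miR396a, miR396c, miR827a and miR1432a, up to 4 of each list by p, and called families and arms with up to 6 others. Lists followed family roles: SPL and AP2-like regulators for age and phase (miR172, miR156, miR157, miR535, miR529), auxin (miR393, miR390, miR167, miR160), boundary with meristem and polarity (miR394, miR171, miR166, miR165, miR164), TCP and GRF (miR396, miR319), MYB (miR858, miR828, miR159), phosphate with sulfate (miR827, miR399, miR395), copper (miR857, miR528, miR408, miR398, miR397), small RNA machinery (miR403, miR168, miR162) and lineage-limited (miR7782, miR1863, miR1432, miR535, miR530, miR529, miR528, miR444). The comparison, the lists and the rule were chosen with earlier results of these data known. Alternatives were other scalings, DESeq2 1.42.0, limma 3.58.1 (voom), edgeR's exact test, other filters, the 6 libraries alone, a replicate block, robust dispersion and leaving out each library. The scripts were tested on simulated counts.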

Additional observations from a re-analysis of the deposited data

Results flagged for a closer look

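For both arms of miR827a the ethephon minus water difference at 6 hours differed from the mean of the 7 later differences, by a test of that difference in the edgeR fit. The 6 hour value exceeded the later mean by 1.94 log2 units for miR827a-3p (SE 0.48, adjusted p = 0.0054) and by 2.27 for miR827a-5p (SE 0.46, adjusted p = 0.00061). In the 6 hour libraries 3 of 3 ethephon libraries lay above 3 of 3 water libraries for each arm, whereas later the difference was above 0 at 1 of 7 samplings, day 1, for each. Without both ethephon replicate 3 and water replicate 2 the values were 2.00 and 2.29, with adjusted p of 0.0366 and 0.0062. The first sampling was processed later in the day than the others in both treatments, so that time after treatment and time of processing cannot be told apart in this contrast.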

How the results depend on the processing

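Of the 6 DE miRs, 1 remained with all sequencing tags as library size and 0 of 57 without both ethephon replicate 3 and water replicate 2 (edgeR, 6 at an unadjusted p under 0.05; this setting was chosen after seeing the data). Leaving out each library in turn gave 1 to 5 DE miRs, 1 without water replicate 2, 2 without ethephon replicate 3 and 3 without water replicate 1. Under the other 12 alternatives 5 to 8 were DE, with no composition factor all of them up. DE families numbered 4, against 0 with all tags (3 at an unadjusted p under 0.05) and 0 without both libraries (3), 2 with no composition factor, with TMM factors without miR159c-3p, with a mean of 10 counts in either group, in the 6 libraries alone, by the exact test and with the replicate block in the 6 libraries alone, and 0 to 5 with a library left out. DE family arms numbered 4, against 0 with all tags (5 unadjusted) and 0 without both libraries (3), 2 with no filter and with the replicate block in the 6 libraries alone, and 0 to 5 with a library left out. In the contrast with the later samplings 2 miRs were called, against 5 with TMM factors without miR159c-3p and with no filter, 6 by DESeq2 and limma-voom, 4 with a mean of 10 counts and with robust dispersion, and 2 to 5 with a library left out. No called miR, family or arm changed direction in any alternative run. The cause of these losses was not tested. Differences in depth measures ran from -14699 to -4073 total counts, -0.136 to -0.0673 percentage points of tags, -8.18 to -3.35 points of the miR159 family and 0.678 to 6.05 points of miR159c-3p with a library left out, and miRs detected from -1.5 to 2.

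With the replicate number as a block 6 miRs were DE in all libraries and 7 in the 6 libraries alone, and the block ended no call among the 6. Same-numbered libraries of the 6 hour sampling did not deviate together (correlations of -0.29, -0.11 and -0.03). With only 3 libraries a group, these values cannot tell whether the numbers mark a pairing of the samples. With 52035 to 86017 counts a library, of which the 10 leading miRs held 94.4%, 133 sequences could not be tested.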
